A study of Mus musculus with 4 samples.

Results

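The mouse genes named Zfp followed by digits only encode zinc finger proteins, and 271 of them were described in Met-low and Met-high melanoma cells. They were found through the accession of each array probe: 372 such symbols are in the mouse RefSeq gene table, 339 had a named probe, and 271 had a probe that the scanner software flagged as well above background on both Met-low or both Met-high arrays. They are 271 of the 11960 genes kept by that filter. Each gene is represented by its probe with the highest mean signal.

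Most of these proteins carry tandem C2H2 zinc fingers, in which pairs of cysteines and histidines hold a zinc ion and the finger reads a few bases of DNA. Many also carry a KRAB domain, which recruits the corepressor Trim28 and, through it, the histone methyltransferase Setdb1, and is best known for silencing endogenous retroviruses and other transposable elements. Genes of the KRAB type have multiplied by tandem duplication and lie in clusters of similar copies, while others of the family are single genes that act in stem cells, development or RNA handling.

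The cells were B16-F10, a mouse malignant melanoma line from skin, separated by flow cytometry into a population with little Met on the surface (Met-low) and one with much (Met-high). Met is the receptor of hepatocyte growth factor. The sorted cells were cultured for 3 days, no agent or introduced allele distinguished the populations, and the 2 RNA samples of each were prepared independently from this 1 line. Each was hybridised to a one-colour Agilent mouse array, and the comparison asks which genes differ between the populations.

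The 4 arrays lay on 1 slide and were read in 1 scan, with Met-low at the first positions and Met-high at the later ones, so that slide position and cell population cannot be told apart. Between 50.01% and 53.6% of spots were well above background, and none was saturated. The 7 melanocyte markers tested were well above background on all 4 arrays, whereas none of 4 fibroblast markers was on every array (2 of them on no array). Among the markers of leukocytes, endothelium and keratinocytes, 1 of 3 (Cd3e), 1 of 3 (Kdr) and 0 of 3 were. The probe for the Met transcript, whose protein defined the sort, read -0.26 and -0.89 in Met-low and 1.03 and -0.43 in Met-high. On this probe the populations overlapped (log2 ratio 0.87, adjusted p = 0.333 by limma with Benjamini-Hochberg adjustment). By quantitative RT-PCR, the paper reported much more Met mRNA in Met-high cells. All signals are log2 intensities relative to the 75th percentile of their array, and a log2 ratio is Met-high minus Met-low.

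The Zfp genes that differed were almost all lower in Met-high cells. By limma, with Benjamini-Hochberg adjustment across the 11960 genes, 43 of 271 Zfp genes fell in Met-high at an adjusted p under 0.05, where 3.84% of all genes kept did, and 1 rose, where 1.95% of all genes kept did. The median log2 ratio was -0.17 over the Zfp genes (quartiles -0.82 and 0.20) and 0.10 over all genes kept (quartiles -0.20 and 0.35). The difference from all genes was thus widest in the lower quartile. In these bulk samples, fewer cells with a transcript and less of it per cell cannot be told apart.

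Other ways of counting gave the same direction. At a difference of group means over 2-fold, with no test, 58 Zfp genes were lower in Met-high (background 5.32%) and 1 was higher (background 2.45%). The Met-high arrays both lay below both Met-low arrays in 113 Zfp genes (background 22.7%), and both lay above in 57 (background 35.8%). The filter lets in genes that are bright in only 1 population. Of the 271 genes, 247 were well above background on all 4 arrays, 14 on 3 and 10 on 2. Over the 247, 32 fell (2.99% of all genes of this kind did) and 1 rose (1.62%), with a median log2 ratio of -0.10. The 10 genes kept through 2 arrays had mean relative signals from -5.62 to -3.87, and the 7 genes with 2 such arrays, but 1 in each population, had -5.25 to -4.12 and were not kept. In total 68 genes with a probe were not kept, and 44 of these were well above background on no array.

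The number of calls rested on the filter. Without it, limma called 1 of 339 Zfp genes lower (Zfp40) and 0 higher, and 7 of 20828 genes in all, while 79 Zfp genes were lower and 12 higher at an unadjusted p under 0.05. The corresponding unadjusted counts with the filter were 81 and 18.

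**Figure D1:**
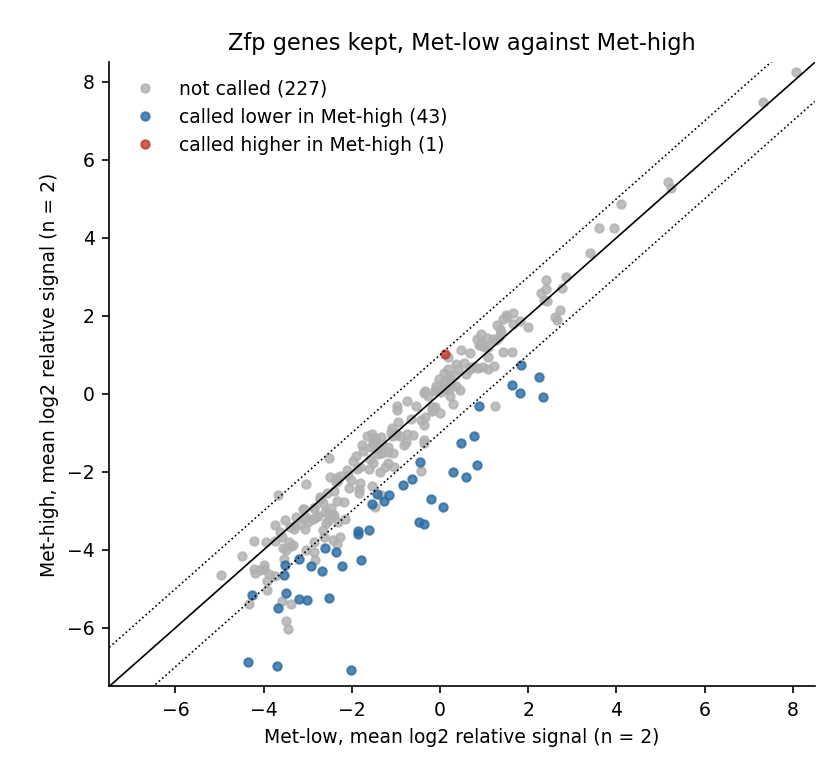
Mean relative log2 signal of each of the 271 Zfp genes in Met-low (horizontal axis) and Met-high (vertical axis), 2 arrays each. The solid line marks equal signal and the dotted lines a 2-fold difference; the 43 genes called lower lie below the diagonal, and the 1 called higher lies above it.

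The largest difference was at Zfp40, on chromosome 17. Its relative log2 signal was -1.90 and -2.14 in Met-low and -7.11 and -7.04 in Met-high. It was not well above background on either Met-high array, so on these signals it was at least 8.47-fold lower in Met-high cells (adjusted p = 0.00188 by limma). The bound was set by the dimmest probe still above background on each Met-high array, at -4.96 and -5.25, since Zfp40 was dimmer. This bound and those given below hold only for the scaled signals used here, and another background correction gave smaller falls.

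Among the 10 called genes with the most negative fitted log2 ratios, 3 others were not well above background on either Met-high array. Their fitted ratios rest on those dim signals, so only bounds are given and their rank is not settled. Zfp458, on chromosome 13, read -2.48 and -2.55 in Met-low and -5.45 and -5.00 in Met-high, at least 5.52-fold lower. Zfp935, also on chromosome 13, read -3.84 and -3.57 against -6.92 and -7.05, at least 2.64-fold lower. Zfp945, on chromosome 17, read -4.42 and -4.28 against -7.19 and -6.58, at least 1.68-fold lower. The fits gave adjusted p-values of 0.00706, 0.00503 and 0.0101, which rest on the same dim signals, and all 4 genes passed the filter through Met-low. After normexp background correction Zfp935 and Zfp945 were no longer called (log2 ratios -0.77 and -0.63, adjusted p = 0.0634 and 0.0737 by limma). The log2 ratio of Zfp40 was then -1.84. These 3 falls were smaller than the bounds. Across the settings the log2 ratio of Zfp458 ran from -2.93 to -1.20, and the weaker end was also a smaller fall than its bound. In all, 7 of the 43 genes that fell were not well above background on either Met-high array.

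The other 6 of the 10 were well above background on all 4 arrays. Zfp931 read -0.33 and -0.40 in Met-low and -3.03 and -3.63 in Met-high (log2 ratio -2.96 ± 0.24, SE, adjusted p = 0.00803; 0.0884 for the mean of its probes). Its neighbour on chromosome 2 among the called genes, Zfp967, read -0.19 and -0.22 against -2.46 and -2.93 (log2 ratio -2.49 ± 0.21, adjusted p = 0.00821). On these probes the replicates of a population lay close together and the populations were far apart. A dimmer Zfp931 probe read -2.13 and -1.94 in Met-low and -2.45 and -5.76 in Met-high (adjusted p = 0.300 by limma, fitted over every probe). Other Zfp967 probes had log2 ratios of -2.80 and -0.82 (adjusted p = 0.0346 and 0.124 by the same fit).

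Zfp992 read 0.17 and -0.05 in Met-low and -2.31 and -3.50 in Met-high (log2 ratio -2.96 ± 0.40, adjusted p = 0.0222). Zfp960 read -0.97 and -0.01 against -3.79 and -2.78 (log2 ratio -2.80 ± 0.45, adjusted p = 0.0337; 0.0513 by quantile normalization). Here the replicates differed by about 1 on the log2 scale in at least 1 population, yet the populations did not overlap. Zfp984 and Zfp534, neighbours of Zfp992 on chromosome 4, are described with their promoters.

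In the other direction 1 gene was called. Zfp428, on chromosome 7, read 0.10 and 0.15 in Met-low and 0.94 and 1.12 in Met-high (log2 ratio 0.91 ± 0.16, adjusted p = 0.0413). The 2 Met-high arrays were above both Met-low arrays, and the call was lost when any 1 of the 4 arrays was left out (adjusted p from 0.0536 to 0.125). Zfp536 (chosen after its values were seen), a repressor of neuronal differentiation, was the gene over 2-fold higher, at -4.06 and -3.29 against -2.34 and -2.87, without passing the test (adjusted p = 0.123).

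The 5 Zfp probes with the highest signal did not pass the test in either direction. Zfp628 read 8.21 and 7.93 in Met-low and 8.42 and 8.07 in Met-high. Another probe of this gene was much dimmer, at -0.52 and -0.89 against 0.13 and -0.19. Its log2 ratio was 0.68 (adjusted p = 0.154 by limma, fitted over every probe). Zfp622, which acts in the assembly of the large ribosomal subunit, read 5.30 and 5.18 against 5.26 and 5.27, a log2 ratio of 0.03 ± 0.16. Zfp408, Zfp658 and Zfp791 had log2 ratios of 0.16, 0.27 and 0.77, the last with adjusted p = 0.135. Probes differ in how brightly they bind, so signal does not rank these genes by their RNA.

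**Figure D2:**
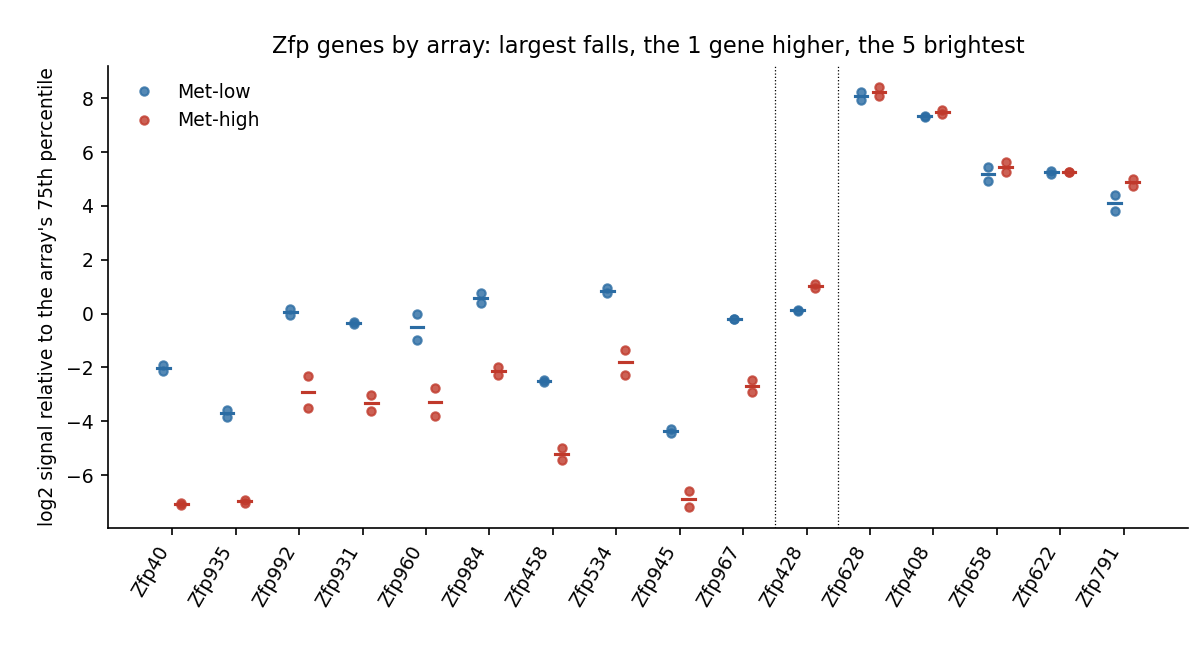
Relative log2 signal of 16 Zfp genes on each of the 4 arrays (points) with the mean of each population (bars): the 10 called genes with the most negative fitted ratios, the 1 gene called higher and the 5 brightest probes, separated by dotted lines. In the first 10 genes both Met-high points lie below both Met-low points; in Zfp628 and the 4 other bright probes at the right the means differ by less than 1.

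The falls were found mostly among Zfp probes of low signal. When all genes kept were divided into 5 equal classes by mean signal, 21 of 91 Zfp genes in the dimmest class fell, then 13 of 81, 7 of 61, 2 of 29 and, in the brightest, 0 of 9. All genes showed the same order, with 219, 137, 64, 26 and 13 called lower of 2392 in each class. Zfp genes themselves were dim: their median relative log2 signal was -1.41, and that of all genes kept was 0.34. The classes are cut on the mean over all 4 arrays, so a fall in Met-high itself moves a gene to a dimmer class. In the dimmest class, 7 of the 21 Zfp calls and 96 of the 219 calls overall were genes not well above background on either Met-high array.

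**Figure D3:**
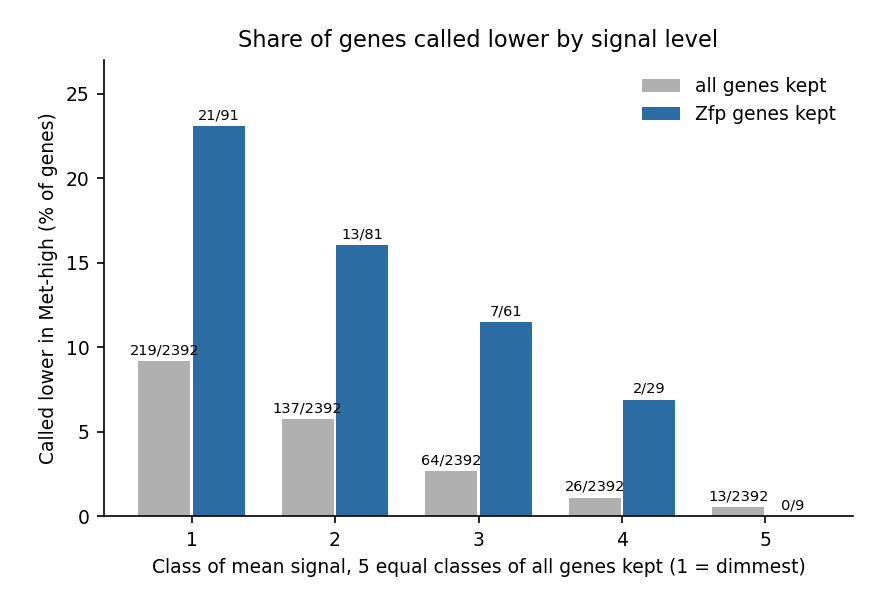
Percentage of genes called lower in Met-high cells in each of 5 classes of mean signal, for all genes kept (grey) and Zfp genes (blue), with the counts above the bars. The share decreases from 21 of 91 Zfp genes in the dimmest class to 0 of 9 in the brightest, and from 219 to 13 of 2392 genes.

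Of the 43 genes that fell, 27 lay in runs of Zfp genes along the chromosomes. In the gene order of the mouse assembly GRCm38.p6, 15 runs were found in which Zfp genes followed each other with at most 5 other protein-coding genes between them and at least 5 had a probe. The runs hold 112 of the 271 genes. In the runs 27 of 112 genes fell (24.1%), and 16 of 159 fell elsewhere (10.1%), where 3.84% of all genes kept did. Of these calls, 5 in the runs and 2 elsewhere were genes not well above background on either Met-high array. The share in runs depended on the gap allowed. With at most 10 or 20 other coding genes between Zfp genes, it was 21.6% and 19.6%. All 27 lay in 5 of the 15 runs, and no Zfp gene passed the test in the other 10. Some of those 10 held calls under other settings. After normexp background correction, 1 of 3 genes was called lower in the run on chromosome 9 from Zfp653 to Zfp810.

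On chromosome 17, 13 of 20 Zfp genes fell in the run from Zfp160 to Zfp13, with a median log2 ratio of -1.67. Of the 13, 4 were not well above background on either Met-high array and passed the filter through Met-low. When only genes well above background on all 4 arrays were tested, 8 of 14 in the run fell. Without the filter, 1 of 20 did. Apart from Zfp40 and Zfp945, the largest fall in the run was of Zfp995, which read 2.37 and 2.30 in Met-low and 0.26 and -0.40 in Met-high (log2 ratio -2.41 ± 0.25, adjusted p = 0.0127). The exceptions at the end of the run were Zfp213 and Zfp13, with log2 ratios of 0.18 and 0.73, neither past the test. The 6 genes kept among the 10 coding genes on each side of the run had a median log2 ratio of 0.42, and 0 of them fell. After normexp background correction 7 genes of this run were called lower, after quantile normalization 9, and 12 to 14 when 1 array was left out.

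On chromosome 7, a run of 4 kept genes held 3 that fell. Zfp936 (log2 ratio -1.84 ± 0.18), Zfp976 (-1.81 ± 0.17) and Zfp975 (-1.53 ± 0.27) fell together. The call of Zfp975 was lost by quantile normalization (adjusted p = 0.0648 by limma). It was also lost without Met-low replicate 2, where the log2 ratio was -1.26. Zfp976 read 2.18 and 2.32 in Met-low and 0.55 and 0.33 in Met-high. The last gene of the run, Zfp715, had a log2 ratio of 0.56 and did not pass (adjusted p = 0.191). Of the 5 kept genes that flank this run, 1 fell. The other 6 runs on chromosome 7 held 42 kept Zfp genes, of which 0 fell. In 2 of these runs, every log2 ratio was above 0. In the run from Zfp84 to Zfp146, by contrast, 11 of 12 genes had a lower mean in Met-high (median log2 ratio -0.28). In that from Zfp180 to Zfp94, 6 of 9 did.

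On chromosome 13, all 12 Zfp genes kept in the run had a mean below that of Met-low, and 3 of them passed the test: Zfp458, Zfp65 and Zfp712. The run's median was -0.82. Of 9 other genes kept within this run, 2 fell, Zfp729a and Zfp729b, and 1 of the 8 kept genes that flank it did. Zfp65 was called in 1 of the 4 fits that left out an array and Zfp712 in 0, and after normexp correction 1 gene of the run was called. On chromosome 8, 1 of 4 fell, Zfp930, which read 1.77 and 1.88 in Met-low and 0.03 and 0.00 in Met-high (log2 ratio -1.81 ± 0.16, adjusted p = 0.0085). The 1 other gene kept within that run, Gm10033, also fell, as did 1 of the 10 kept genes that flank it. In the run on chromosome 6, 7 of 8 genes had log2 ratios above 0, with a median of 0.37, and none passed the test.

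**Figure D4:**
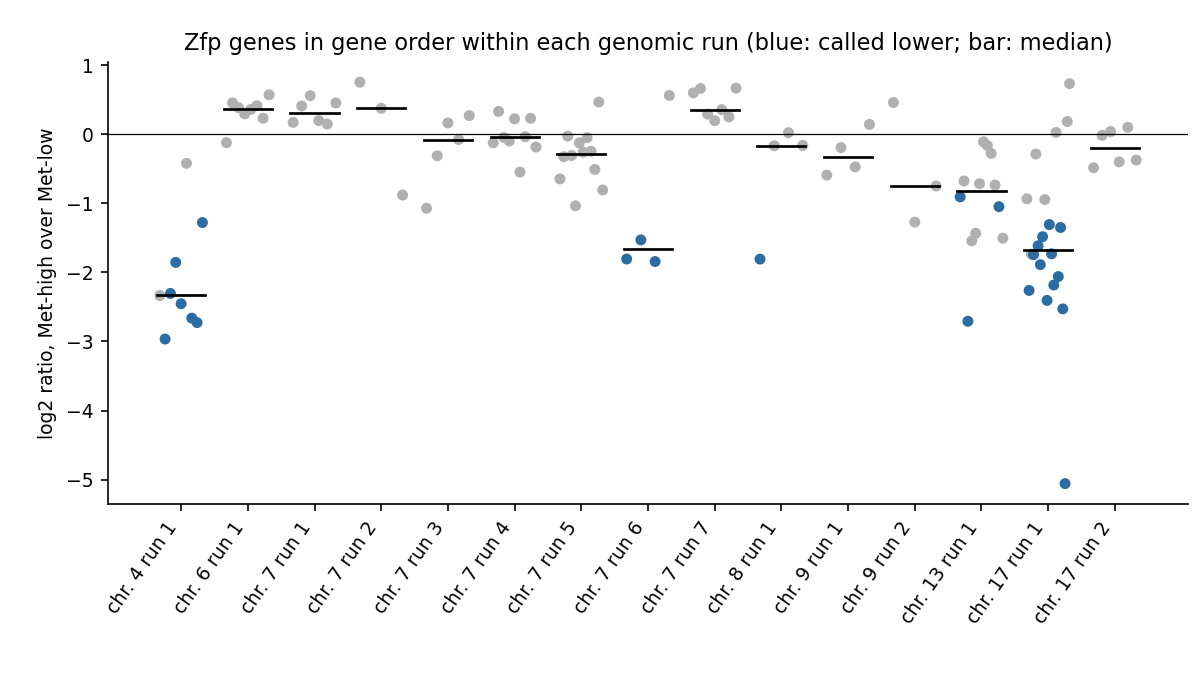
Log2 ratio of Met-high over Met-low for each Zfp gene kept in the 15 genomic runs, in gene order from left to right within a run. Blue points are genes called lower in Met-high and bars are run medians, which lie at -2.33 in the chromosome 4 run, -1.67 in the first chromosome 17 run and 0.37 in the chromosome 6 run.

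In the run on chromosome 4 most genes fell. Of its 16 Zfp genes 9 had a probe and all 9 were kept, every one had a lower mean in Met-high, and 7 fell (median log2 ratio -2.33). Zfp984 read 0.41 and 0.78 in Met-low and -2.002 and -2.26 in Met-high (log2 ratio -2.73 ± 0.21, adjusted p = 0.00706). Zfp534 read 0.95 and 0.75 against -1.34 and -2.29 (log2 ratio -2.66 ± 0.34, adjusted p = 0.0189). Zfp981 (chosen for its promoter after its values were seen) read 0.39 and 0.20 against -2.16 and -1.86, and Zfp985 read -2.12 and -1.47 against -4.09 and -4.40. In each of these genes both Met-high arrays lay below both Met-low arrays, and the gap between the populations was wider than that between replicates.

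Another zinc finger gene that lies within the run, Rex2, read -4.00 and -4.46 in Met-low and -5.95 and -7.17 in Met-high. It was not well above background on either Met-high array and was at least 1.83-fold lower on these signals (adjusted p = 0.0444 by limma, from the same dim signals). After normexp correction its log2 ratio was -0.45, a smaller fall (adjusted p = 0.389 by limma). Of the 11 kept genes that flank the run, 1 fell and the median log2 ratio was 0.23. The 2 Zfp genes of the run that did not pass were Zfp600, at -3.31 and -3.68 against -4.97 and -6.69 (adjusted p = 0.0777), and Zfp979, at -3.14 and -2.09 against -3.15 and -2.92 (log2 ratio -0.42, adjusted p = 0.499). Zfp979 did not separate the populations.

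Most of the promoters of these neighbours are close copies of one another. RefSeq windows were at hand for 8 of the 9 genes, and 6 of them, of Zfp600, Zfp981, Zfp985, Zfp979, Zfp534 and Zfp984, were alike in all 15 pairs, with 81.1% to 98.4% identical bases over 191 to 244 aligned bases. Zfp982 and Zfp933, which also fell (log2 ratios -1.86 and -1.28), had windows less like these, with 67.4% and 71.9% identity in their longest alignments with them. The 250 bases before the start site are shown for the 4 that fell and for Zfp979, which did not pass, because they show how little the upstream sequence of these differs. They come from RefSeq on GRCm38.p6, 5′ to 3′ on the strand of the gene, at chr4:146514670-146514919 (plus) for Zfp981, chr4:147553027-147553276 (plus) for Zfp985, chr4:147702632-147702881 (minus) for Zfp534, chr4:147809789-147810038 (minus) for Zfp984 and chr4:147642509-147642758 (minus) for Zfp979. Capitals mark the longest stretch common to all 6.
Zfp981: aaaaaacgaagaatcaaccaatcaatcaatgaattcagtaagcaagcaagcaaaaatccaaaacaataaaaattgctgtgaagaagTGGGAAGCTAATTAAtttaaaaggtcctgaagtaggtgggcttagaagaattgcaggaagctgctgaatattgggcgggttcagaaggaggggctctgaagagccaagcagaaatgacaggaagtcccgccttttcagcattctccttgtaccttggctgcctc
Zfp985: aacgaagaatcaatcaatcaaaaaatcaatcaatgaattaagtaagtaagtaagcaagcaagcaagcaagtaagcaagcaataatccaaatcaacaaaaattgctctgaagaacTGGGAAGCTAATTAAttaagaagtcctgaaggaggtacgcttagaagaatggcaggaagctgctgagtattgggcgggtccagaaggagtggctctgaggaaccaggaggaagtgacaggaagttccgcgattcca
Zfp534: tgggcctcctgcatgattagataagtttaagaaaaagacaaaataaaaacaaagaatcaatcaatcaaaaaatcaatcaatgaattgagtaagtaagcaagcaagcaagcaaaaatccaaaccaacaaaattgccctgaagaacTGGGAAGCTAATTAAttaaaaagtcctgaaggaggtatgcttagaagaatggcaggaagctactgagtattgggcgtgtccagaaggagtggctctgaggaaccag
Zfp984: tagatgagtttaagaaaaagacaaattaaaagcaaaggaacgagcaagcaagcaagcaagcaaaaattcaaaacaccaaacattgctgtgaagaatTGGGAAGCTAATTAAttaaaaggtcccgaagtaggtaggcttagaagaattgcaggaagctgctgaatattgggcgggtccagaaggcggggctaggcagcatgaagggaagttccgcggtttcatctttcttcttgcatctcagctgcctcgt
Zfp979: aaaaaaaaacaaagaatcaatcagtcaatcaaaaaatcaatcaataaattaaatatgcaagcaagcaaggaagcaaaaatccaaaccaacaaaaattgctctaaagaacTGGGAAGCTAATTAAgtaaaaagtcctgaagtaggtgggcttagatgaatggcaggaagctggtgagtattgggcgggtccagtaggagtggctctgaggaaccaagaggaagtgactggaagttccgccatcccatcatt

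This stretch of 15 bases stood in 11 of 27025 promoters, and all 11 belong to genes of chromosome 4, 9 of them Zfp genes and the others Rex2 and Gm13212. Of the 11, 7 were kept, all with a lower mean in Met-high, though for Rex2 and Zfp600 only a bound can be given. The promoter of Zfp979 was 98.4% identical to that of Zfp600. A probe for one such copy may bind RNA of another, and how far the probes of this run tell the copies apart was not tested.

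Over all Zfp genes, those that fell had promoters with fewer CpG dinucleotides. In the 300 bases from 250 before to 50 after the start site, the median was 9 CpG in the 38 genes that fell and had a promoter entry, 16 in 192 Zfp genes not called and 21 in all genes kept. When the Zfp genes were divided by CpG number, 26 of 86 fell at 1 to 10 CpG, 8 of 74 at 11 to 18, and 4 of 71 at 19 or more. The same ranges over all genes kept held 7.44%, 3.28% and 2.73% called lower, so the order was shared and the Zfp shares of 30.2%, 10.8% and 5.63% were higher in each range. Across 231 Zfp genes, Spearman's rho was 0.39 between CpG number and log2 ratio and 0.25 between CpG number and signal. Genes are not independent replicates, copies in a run share sequence, and signal moves with CpG number, whose part in the result was not tested.

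**Figure D5:**
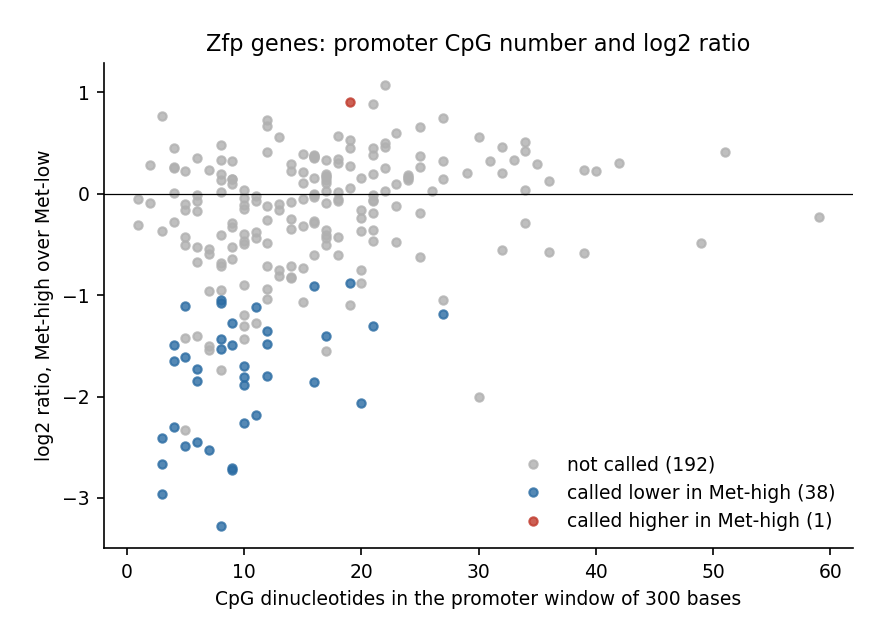
Number of CpG dinucleotides in the promoter window (horizontal axis) and log2 ratio of Met-high over Met-low (vertical axis) for the 231 Zfp genes with a promoter entry. Most of the 38 genes called lower (blue) lie at 10 CpG or fewer, 26 of them.

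Exact matches to 5 motifs were counted in the same windows on both strands. The E-box CACGTG was in 8 of 38 promoters of genes that fell (21.1%), in 11 of 192 of Zfp genes not called (5.73%), in 10.3% of genes kept and in 7.24% of all promoters. The 8 genes were Zfp296, Zfp365, Zfp758, Zfp933, Zfp943, Zfp946, Zfp947 and Zfp994, and 5 of these lie in the same run on chromosome 17. Zfp944 of that run also had the E-box and was not called (log2 ratio 0.03). CGCATGCG, read by NRF1, was in 0 of 38 and in 11 of 192, against 3.96% of genes kept and 1.91% of all promoters. The ETS motif CCGGAAGT was in 10.5% and 10.4% (8.55% of genes kept, 4% of all promoters), and the CRE TGACGTCA in 2.63% and 4.17% (3.34% and 1.88%). The GC box GGGCGG was in 47.4% and 49.5% (63.7% of genes kept and 35.9% of all promoters). None of the 5 motifs contains another, and a match does not show that a factor binds.

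Zfp genes with a known role were spread over all parts of the distribution. The sets below are small, beside a background of 3.84% of all genes called lower. Of 5 kept genes that silence retroelements or guard imprints, 1 fell: Zfp932, a repressor of endogenous retroviruses, read -0.93 and -0.74 in Met-low and -2.37 and -2.30 in Met-high (log2 ratio -1.50 ± 0.16, adjusted p = 0.0136). Zfp809, which silences murine leukaemia viruses in embryonic cells, and Zfp445, an imprint keeper, had log2 ratios of -1.27 and -0.90 and missed the threshold, each with adjusted p = 0.056. They passed it under 7 and 3 of the alternatives, respectively. Zfp57, the other well-known imprint keeper, read -2.03 and -1.44 against -1.77 and -1.18, and its populations overlapped.

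Of 3 kept genes known from pluripotent cells, 2 fell. Zfp281 read 0.64 and 1.12 in Met-low and -0.37 and -0.23 in Met-high (log2 ratio -1.19 ± 0.22, adjusted p = 0.0444). Zfp296 had a log2 ratio of -0.88 ± 0.16 (adjusted p = 0.0463). The remaining gene, Zfp143, had a log2 ratio of 0.30 (adjusted p = 0.50), and Zfp42 was well above background on no array. The calls of Zfp281 and Zfp296 were close to the threshold: that of Zfp281 was lost without Met-low replicate 2 or Met-high replicate 1 (adjusted p = 0.0897 and 0.0573), and that of Zfp296 without any 1 of the 4 arrays (adjusted p from 0.0812 to 0.142).

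Of 7 kept genes with a role in cell lineages, 1 fell. Zfp365, known from neurons and oligodendrocytes, read 1.88 and 1.79 in Met-low and 0.75 and 0.76 in Met-high (log2 ratio -1.08 ± 0.15, adjusted p = 0.0247); without Met-low replicate 1 the adjusted p was 0.0705. Zfp423, which directs cells to the fat lineage, was among the higher genes with a log2 ratio of 0.89 (adjusted p = 0.0608). None of 7 kept genes for RNA and ribosomes and none of 8 for chromatin and cell division passed. In the first of these sets Zfp638, an RNA-binding protein with roles in splicing and retroviral silencing, read 1.06 and 1.43 against -0.78 and 0.17 (adjusted p = 0.0679).

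Of 24 corepressor genes kept, with whose products KRAB proteins act, 2 fell and 0 rose, against 3.84% and 1.95% of all genes kept. Their median log2 ratio was 0.17, and that of all genes kept was 0.10. Trim28, the KRAB corepressor itself, read 3.98 and 3.73 in Met-low and 4.51 and 4.51 in Met-high (log2 ratio 0.65, adjusted p = 0.0938), and Setdb1 had a log2 ratio of 0.17 (adjusted p = 0.518). The genes that fell were Mphosph8, a subunit of the HUSH silencing complex (log2 ratio -2.54 ± 0.30, adjusted p = 0.017), and Atrx, a chromatin remodeller that deposits histone H3.3 with Daxx (log2 ratio -2.36 ± 0.17, adjusted p = 0.00658).

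Where a gene had several probes, they mostly moved together. Of the 87 Zfp genes with more than 1 probe kept, 13 had probes of opposite sign, and the median difference between probes was 0.27 on the log2 scale. Of the 43 genes that fell, 17 had more than 1 probe kept, and in all 17 every probe was below 0 (over 2-fold lower for every probe in 13). The widest gaps between probes of opposite sign were at Zfp457 (log2 ratios -1.54 and 0.35), Zfp219 (-1.29 and 0.33) and Zfp944 (-1.46 and 0.03). In Zfp219 and Zfp944, the brighter probe that represents the gene had the higher ratio, and none of the 3 genes was called. The widest gap of all was between probes of the same sign in a gene that fell, Zfp967 (-2.80 and -0.82). Zfp981 (-2.30 and -0.97), Zfp976 (-1.81 and -0.86) and Zfp930 (-1.81 and -0.89) also fell with a probe under 2-fold lower. The weaker probes of these genes did not pass by themselves (adjusted p from 0.123 to 0.241 by limma, fitted over every probe).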

How the data were processed

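The authors sorted B16-F10 cells, labelled total RNA of 2 samples for each population with Cy3, hybridised it to the Agilent 4 × 44K mouse array and read the scans with Agilent Feature Extraction (file headers 11.0.1.1, submitters' processing notes 10.7.3.1). They deposited scanner tables with intensity per spot on a linear scale, background-subtracted by that software but not scaled between arrays, and with flags, such as signal well above background. The authors also deposited a table of log2 values, scaled to the 75th percentile of each array and centred on the median of each probe, which was used as an alternative.

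For the results here, each array's processed intensity was divided by its 75th percentile over non-control spots before the log2 step; a floor of 0.01 was never reached. Outlier spots (207 to 232 per array) were left out and spots of a probe averaged. RefSeq names on GRCm38.p6 were found for 27421 of 39429 probes through their accessions. The array design was built on mm9, so its probe coordinates were not used, and the order of genes came from RefSeq on GRCm38.p6. Of 20828 genes, 11960 had a probe well above background on both arrays of a population, and 1 probe stood for each. Met-high was compared with Met-low by limma 3.58.1 in R 4.3.3 (lmFit and eBayes, Benjamini-Hochberg adjustment over all genes kept); the code was tested on simulated data. With 2 arrays per population, their number limits the precision.

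The genes, lists and comparisons were chosen with earlier results of these data known. Named were the 10 largest called differences in each direction, the 5 brightest probes, genes with a known role, up to 4 genes per run, corepressor genes that passed with Trim28 and Setdb1, and up to 3 genes whose probes disagreed by over 1. Promoters came from the RefSeq table (first listed window per gene); Biopython 1.88 aligned them. Protein sequences were not used here. Alternatives were another background correction, scaling or filter, another choice of probe, the authors' table, leaving out each array, a replicate block and a mean-variance trend.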

Additional observations from a re-analysis of the deposited data

How the results depend on the processing

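The count of Zfp genes called lower in Met-high (43) stayed within 1.5 times under every alternative except no filter on dim probes and the replicate block. Without the filter on dim probes it was 1, with 0 called higher and 5 over 2-fold higher. With a replicate block it was 93, with 19 called higher, while 1581 genes in all were called lower and 1968 higher; same-numbered samples deviated together (correlation 0.54), but with 2 pairs and no label of a shared batch they share only a number, and the cause was not tested. Normexp correction gave 33 lower, 31 over 2-fold lower and 0 over 2-fold higher, and 7 instead of 13 genes called lower in the first chromosome 17 run. Quantile normalization gave 33 lower, 2 higher and 2 over 2-fold higher. Scaling to the detected probes moved the median of all genes from 0.10 to -0.05, and gave a Zfp median of -0.31 with 0 called higher and 0 over 2-fold higher; relative to all genes the Zfp median stayed at -0.26. Leaving out 1 array gave 38 to 52 lower, 0 to 1 higher, medians of -0.20 to -0.14, 53 to 64 over 2-fold lower and 1 to 2 over 2-fold higher; 33 of the 43 calls held in all 4 fits and 2, Zfp296 and Zfp712, in none.

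Of the 40 named genes that were called, 0 changed sign under these alternatives, but 39 lost their call without the filter, 10 under normexp correction (where Zfp40 went from -5.06 to -1.84), 9 under quantile normalization, 4 each under detected-probe scaling and a mean-variance trend, 1 with the mean of a gene's probes, and 5 to 9 when 1 array was left out. Log2 ratios of some uncalled genes changed sign. Quantile normalization gave -0.071 for Zfp622, detected-probe scaling -0.12 for Zfp622 and Zfp944, and the mean of a gene's probes -0.72 for Zfp944 and -0.48 for Zfp219. With 1 array left out the ratio ran from -0.0029 to 0.34 for Zfp628, -0.033 to 0.087 for Zfp622, -0.032 to 0.56 for Zfp57, -0.48 to 0.22 for Zfp568, -0.95 to 0.11 for Zfp979 and -0.038 to 0.089 for Zfp944. Low signal limits dim genes: where neither array of a population was well above background, fitted ratios rest on that dim signal. The split by KRAB domain and finger number was not run.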

Other observations

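Related zinc finger families were measured on the same arrays, and the genes named here were chosen after their values were seen. Of 26 kept genes whose symbol is Zfp, digits and a letter, 6 fell in Met-high by limma with Benjamini-Hochberg adjustment and 0 rose (median log2 ratio -0.62), where 3.84% of all genes kept fell and 1.95% rose. They include Zfp729a, at -1.26 and -1.21 in Met-low and -2.81 and -2.64 in Met-high (adjusted p = 0.0131), and Zfp729b (log2 ratio -1.64, adjusted p = 0.0311), both of which lie in the chromosome 13 run. Zfp385c read -3.34 and -3.99 against -5.94 and -6.96. It was not well above background on either Met-high array and was at least 2.70-fold lower on these signals (adjusted p = 0.0255 by limma, from the same dim signals). After normexp correction its log2 ratio was -0.77, a smaller fall.

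Of 38 kept Zbtb genes, which pair zinc fingers with a BTB domain, 1 fell and 2 rose, with a median log2 ratio of 0.01; these counts are close to the shares over all genes. Zbtb20, a repressor known from liver and hippocampus, read 0.85 and 0.66 in Met-low and -1.89 and -2.48 in Met-high (log2 ratio -2.94 ± 0.24, SE, adjusted p = 0.00821). Zbtb45 and Zbtb8a had log2 ratios of 0.998 and 1.07 (adjusted p = 0.0364 and 0.0386), calls that were lost in 3 and 2 of the 4 fits that left out an array. Of 5 Zscan and 7 Zkscan genes kept, 0 passed the test in either direction by limma; at an unadjusted p under 0.05, 1 Zscan gene was lower, and 2 Zkscan genes were lower and 2 higher.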
